A study of Homo sapiens with 8 samples.

Results

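The gene set described here holds the genes that set the threshold for programmed cell death in a cell: the BCL2 family, the inhibitor of apoptosis proteins (IAPs) and the caspases with their adaptors. It was a list of 34 gene symbols, and a gene was measured where the array had a probe set annotated with that symbol alone. This held for 32 of the 34, out of 18417 genes tested. BCL2L2 shared its probe set with a read-through gene and BIRC3 had no probe set of its own symbol in the annotation, so neither was analysed here. Each of the 32 is represented by its probe set with the highest mean. CFLAR alone had a second one.

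Apoptosis is decided at the mitochondrion and at the cell surface. At the mitochondrion, guardians such as BCL2 and MCL1 hold back the pore formers BAX and BAK1 until BH3-only proteins bind and neutralise the guardians; the pore then releases cytochrome c, which assembles APAF1 and CASP9 into the apoptosome. At the surface, death receptors recruit FADD and CASP8, while IAPs such as XIAP block caspases that have already been activated.

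U2OS, a human osteosarcoma cell line (written U20S in the cell line label), was grown in DMEM with 7.5% serum and transfected with siRNA at 10 nM, either against CDK9 or a non-targeting one, and collected 72 h later. CDK9 is the kinase of P-TEFb, the factor that releases paused RNA polymerase II. Affymetrix human gene arrays measured total RNA of 4 cultures per group, described as biological replicates; every culture received siRNA, and there was no untransfected group. The comparison asks which of these survival and death genes differ when CDK9 is silenced.

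Replicate 1 of both groups lay on a lower scale than the rest, with array medians of 5.85 and 5.80 on the log2 scale against 6.99 to 7.04 in the other 6 arrays. Those 2 arrays are called array set 1 and replicates 2 to 4 array set 2. The fit had the set as a block. A second fit, called paired here, had the replicate number in its place. Below, a pair is the CDK9 siRNA array and the control array with the same replicate number. What that number marks is not stated in the labels, so a pair is a pair by number only. All 4 pairs went in 1 direction for 33% of all genes. CDK9 itself read 8.0, 9.03, 9.09 and 9.04 in replicates 1 to 4 under its siRNA and 9.80, 10.86, 10.89 and 10.86 in the controls, a remaining signal of 28.4% (95% confidence interval 26.4 to 30.5%, adjusted p = 2.17e-07). Genes among the dimmest 30% (mean log2 signal below 6.14) are called dim here. The osteoblast genes RUNX2, SP7, COL1A1, COL1A2, SPARC, MSX2 and SPP1 were not dim, whereas the osteoblast enzyme gene ALPL was. Of the 8 osteoblast markers measured, SPP1 rose, by 1.5 on the log2 scale, and RUNX2, COL1A1 and MSX2 fell (-0.60, -0.51 and -0.56), and of the 3 mesenchymal markers FN1 fell (-0.81), as did VIM (-0.19, adjusted p = 0.0323), which missed the threshold in the paired fit (0.0808). All 4 haematopoietic and all 3 endothelial markers measured were dim. The epithelial markers EPCAM and CDH1 were dim, but the keratins KRT8, KRT18 and KRT19 were not. EPCAM, although dim, was higher under CDK9 siRNA by 0.32 (adjusted p = 0.0366), but not in the paired fit (adjusted p = 0.0841), and its second probe set differed by 0.09 (unadjusted p = 0.474, limma). The other 4 epithelial markers did not pass. The part of these marker shifts in the results below was not tested. In RNA from a whole culture, fewer cells of a kind and less RNA per cell cannot be told apart.

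Few of the death and survival genes moved, and none by much. Of the 32 genes, 3 rose under CDK9 siRNA (PMAIP1, BNIP3 and FADD) and 2 fell (XIAP and CASP9), at an adjusted p under 0.05 over all genes tested. The 5 are 15.6% of the 32, against 14.2% of all genes tested, so the share called was near the background. By direction, 6.73% of all genes were called higher and 7.47% lower. The differences ran from -0.27 to 0.26 on the log2 scale, with a median of 0.02, where the median of all genes was 0.00. Their median size was 0.09, the same as over all genes. For all 32 genes the 95% confidence interval of the difference lay within a 1.5-fold change in either direction, which held for 95.9% of all genes. No guardian, pore former or IAP antagonist passed the test, and of the apoptosome genes CASP9 passed but APAF1 and CYCS did not. The counts by role are small and were not compared by a test.

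**Figure D1:**
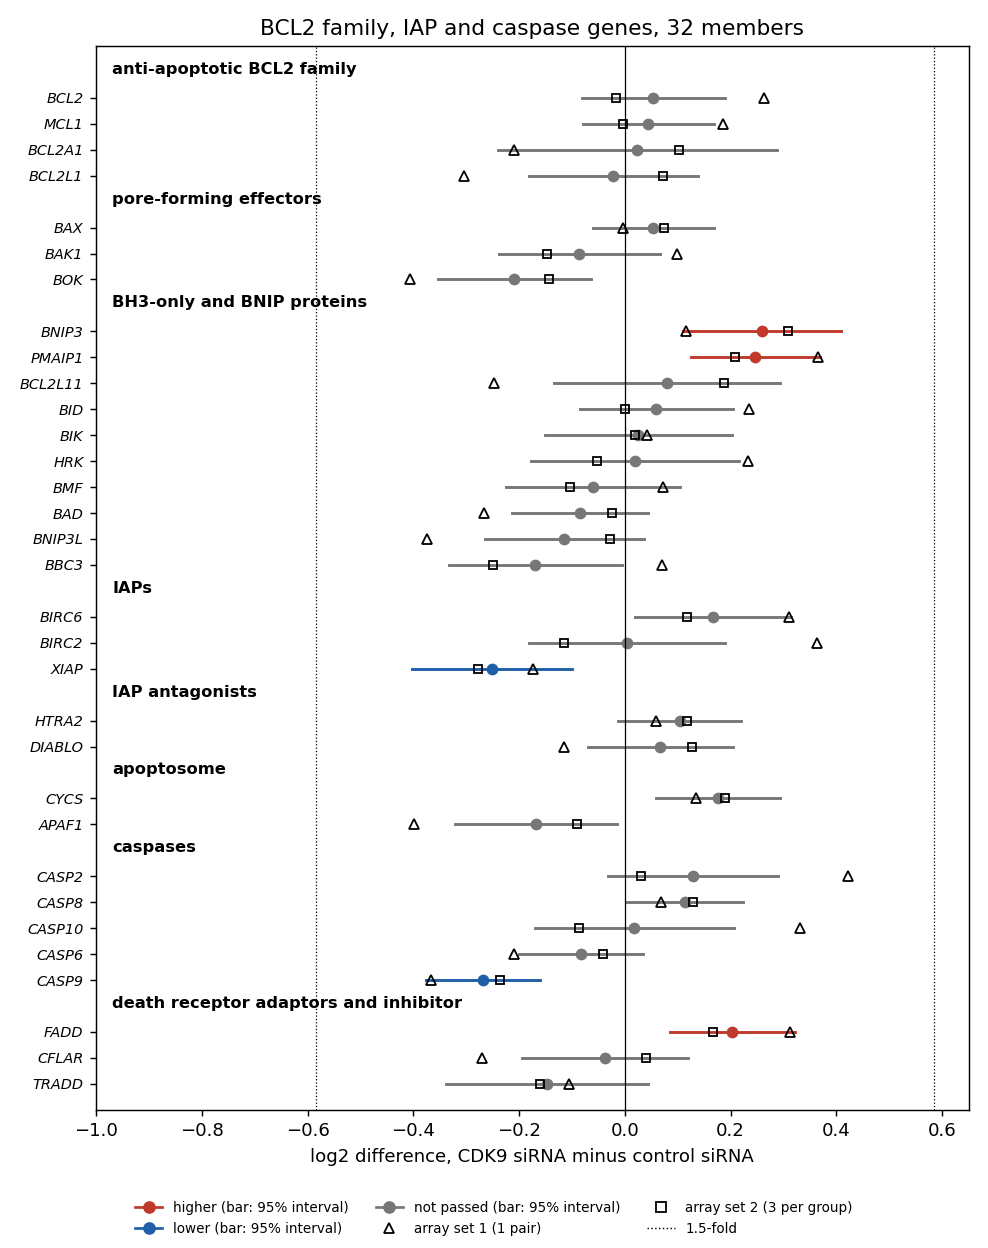
Log2 difference between CDK9 siRNA and control siRNA for each of the 32 genes by role, with the 95% confidence interval from all 8 arrays (filled circles and bars, 4 arrays per group) and the separate values of array set 1 (triangles) and array set 2 (squares). The 5 genes in colour passed the test, and every bar lies between the dotted 1.5-fold lines.

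Among the anti-apoptotic guardians, 0 of 4 measured genes passed, where 14.2% of all genes did. MCL1 is the guardian most often linked to CDK9, because its mRNA and protein are short-lived and are known to be lost quickly when CDK9 is blocked by drugs. Its signal was 10.87, 11.81, 11.82 and 11.79 under CDK9 siRNA and 10.68, 11.77, 11.79 and 11.88 in the controls. The groups overlapped within array set 2, and replicate 1 was the pair with the widest gap. MCL1 differed by 0.04 ± 0.05 (log2, SE, n = 4 per group, adjusted p = 0.668), and its interval, 94.6 to 112% of control, leaves room for a small change in either direction only. BCL2, the founding guardian, read 6.57, 7.35, 7.35 and 7.31 against 6.30, 7.37, 7.36 and 7.33. Its difference of 0.05 (adjusted p = 0.626) came from replicate 1, at 0.26, while array set 2 gave -0.02. BCL2L1, which encodes BCL-xL, read 10.11, 11.04, 11.10 and 11.09 against 10.41, 11.00, 11.04 and 10.98, with a difference of -0.02 (adjusted p = 0.881), from -0.30 for replicate 1 and 0.07 for array set 2. BCL2A1, a guardian known from blood cells, was dim and differed by 0.02 (interval -0.24 to 0.29). The sign differed between the array sets in BCL2, BCL2L1 and BCL2A1, and MCL1 had no difference at 2 decimals in array set 2 (-0.00).

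The pore formers did not pass either. BAX read 9.21, 10.15, 10.07 and 10.02 under CDK9 siRNA and 9.21, 10.01, 10.04 and 9.97 in the controls, a difference of 0.05 (95.9 to 112% of control, adjusted p = 0.555). BAK1 read 8.26, 8.89, 8.79 and 8.90 against 8.16, 9.10, 9.03 and 8.91. Its CDK9 siRNA arrays lay below the controls in array set 2 and above in array set 1, and the difference was -0.09 (adjusted p = 0.469). BOK, a BAX-like protein, came closest, at 7.68, 8.95, 9.05 and 8.94 against 8.09, 9.16, 9.15 and 9.05. All 4 CDK9 siRNA arrays were below their same-numbered controls. The difference of -0.21 ± 0.06 (SE, n = 4 per group) missed the threshold at an adjusted p of 0.0604.

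Of the 10 BH3-only and BNIP genes, 2 rose and 0 fell, where 6.73% of all genes were called higher and 7.47% lower. PMAIP1, which encodes NOXA, a BH3-only protein that binds MCL1, rose to 119% of control (95% confidence interval 109 to 129%). It read 8.87, 10.22, 10.30 and 10.18 under CDK9 siRNA and 8.51, 9.99, 10.06 and 10.02 in the controls. Each treated array was above its same-numbered control, and in array set 2 the groups did not overlap, as was the case for 38.1% of all genes in either direction. Its log2 difference came to 0.25 ± 0.05 (SE, n = 4 per group, adjusted p = 0.0164, paired fit 0.0454). The call ended without the control array of replicate 2 (adjusted p = 0.0511) or the CDK9 siRNA array of replicate 3 (0.0542).

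BNIP3, a mitochondrial protein that acts in mitophagy and is induced by low oxygen, rose to 120% of control (interval 108 to 133%). It read 8.50, 9.17, 9.41 and 9.32 against 8.39, 8.96, 8.99 and 9.02, again with every treated array above its control. Its log2 difference of 0.26 ± 0.07 (SE, n = 4 per group, adjusted p = 0.0306) was smaller in array set 1 (0.12) than in array set 2 (0.31). BNIP3 missed the threshold in the paired fit (adjusted p = 0.0565). The call also ended without any 1 control array of replicates 2 to 4 (adjusted p = 0.0869, 0.0917 and 0.0767) and without the CDK9 siRNA array of replicate 3 (0.0775) or 4 (0.0721). BNIP3L, its close relative and likewise a mitophagy receptor, differed by -0.11 (adjusted p = 0.308). That gap lay in replicate 1, at -0.37, against -0.03 in array set 2.

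The remaining BH3-only genes gave small differences. BBC3, which encodes the p53-induced protein PUMA, read 7.23, 8.01, 7.91 and 8.05 under CDK9 siRNA and 7.16, 8.30, 8.27 and 8.15 in the controls. Replicates 2 to 4 were below the controls without overlap and replicate 1 was above its control, so the difference of -0.17 did not pass (adjusted p = 0.163), whereas array set 2 alone gave -0.25 (adjusted p = 0.0321). BCL2L11, which encodes BIM, read 5.65, 7.74, 7.61 and 7.69 against 5.90, 7.33, 7.50 and 7.65. Its difference was 0.08 (adjusted p = 0.653), at -0.25 in array set 1 and 0.19 in array set 2. BID, the link from death receptors to mitochondria, differed by 0.06, BIK by 0.03, HRK by 0.02, BMF by -0.06 and BAD, which is silenced by survival kinases, by -0.08. The adjusted p values of these 5 genes ran from 0.386 to 0.921.

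**Figure D2:**
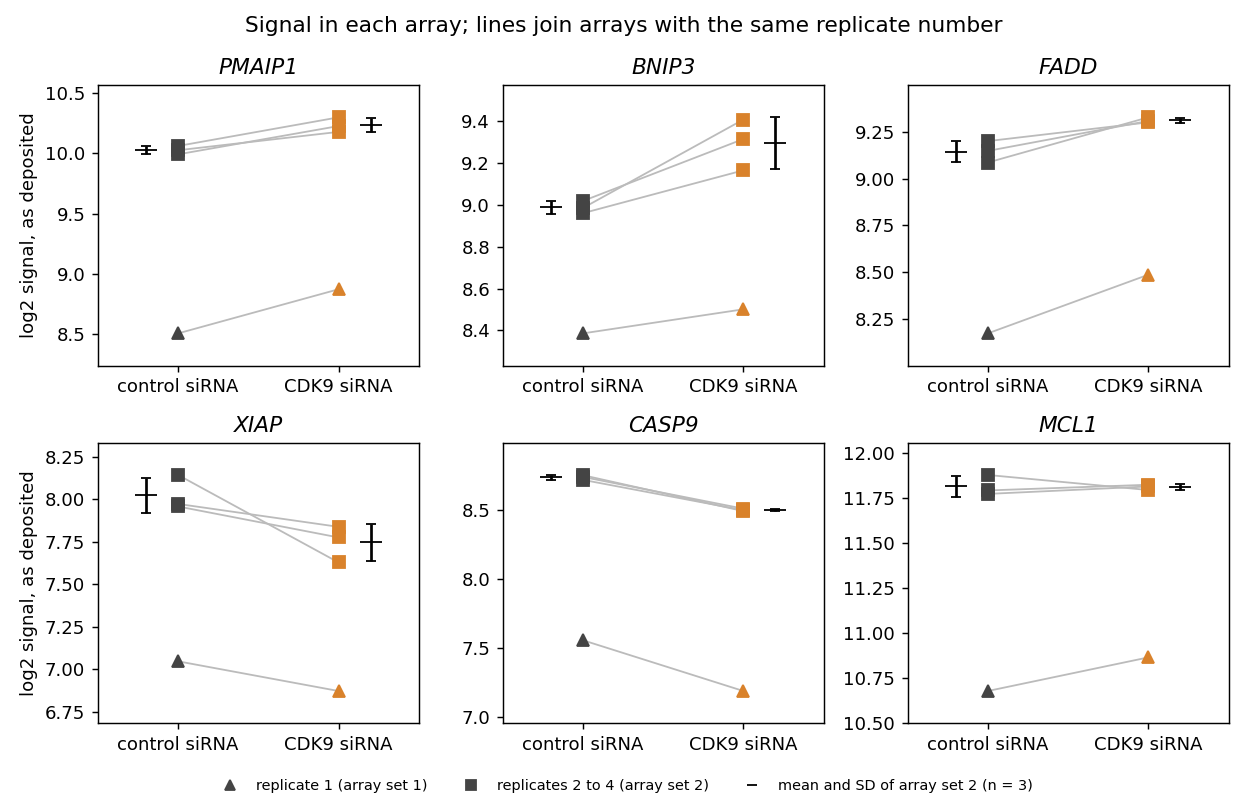
Deposited log2 signal (vertical axis) of the 5 genes that passed and of MCL1 in each of the 8 arrays, by group. Grey lines join arrays with the same replicate number, triangles are replicate 1 (array set 1), squares are replicates 2 to 4 (array set 2), and the bars give the mean and SD of array set 2 (n = 3). All 4 lines rise for PMAIP1, BNIP3 and FADD and fall for XIAP and CASP9, while those of MCL1 go both ways.

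Among the IAPs, 1 of 3 measured genes fell, where 7.47% of all genes were called lower. XIAP, which binds and blocks caspases directly, fell to 84% of control (interval 75.6 to 93.3%). It read 6.87, 7.78, 7.63 and 7.84 under CDK9 siRNA and 7.05, 7.96, 8.14 and 7.97 in the controls, each treated array below its control. The widest gap was in replicate 3, at -0.51, and the other 3 pairs lay between -0.18 and -0.13. The log2 difference of -0.25 ± 0.07 (SE, n = 4 per group, adjusted p = 0.0367) did not pass in the paired fit (adjusted p = 0.0901). The call ended as well without any 1 control array of replicates 2 to 4 (adjusted p = 0.0638, 0.109 and 0.0747) and without the CDK9 siRNA array of replicate 2 (0.0747) or 3 (0.0954).

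BIRC2, which encodes cIAP1, a ubiquitin ligase of TNF receptor signalling, read 10.64, 9.98, 10.00 and 10.06 against 10.28, 10.11, 10.13 and 10.14. Replicate 1 gave 0.36, array set 2 gave -0.12, and both together gave 0.00 (adjusted p = 0.982). It was the 1 gene of the 32 whose difference between the sets passed the test (adjusted p = 0.0499), as 2.14% of all genes did. BIRC6, a very large IAP with ubiquitin ligase activity, was above its control in all 4 pairs, by 0.17, but did not pass (adjusted p = 0.133). The mitochondrial proteins that antagonise IAPs once released, DIABLO (0.07, adjusted p = 0.538) and HTRA2 (0.10, adjusted p = 0.231), did not pass.

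At the apoptosome, CYCS, which encodes cytochrome c, was above its control in all 4 pairs, at 8.49, 9.50, 9.48 and 9.43 against 8.35, 9.26, 9.21 and 9.36. The difference of 0.18 ± 0.05 (SE, n = 4 per group) missed the threshold (adjusted p = 0.0536). APAF1, the scaffold, was below its control in all 4 pairs, at 7.51, 8.50, 8.56 and 8.48 against 7.90, 8.52, 8.63 and 8.66, and did not pass (-0.17, adjusted p = 0.143).

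CASP9, the initiator caspase that the apoptosome activates, fell to 83.0% of control (interval 77.0 to 89.5%) and had the smallest adjusted p of the 32 genes, 0.00653. Its signal was 7.19, 8.50, 8.49 and 8.51 under CDK9 siRNA and 7.56, 8.72, 8.75 and 8.74 in the controls. Within array set 2 the arrays of a group lay close together and the groups did not overlap. Its log2 difference of -0.27 ± 0.05 (SE, n = 4 per group) split into -0.37 for array set 1 and -0.24 for array set 2. CASP9 passed in the paired fit (adjusted p = 0.03) and with each array left out in turn (highest adjusted p = 0.0279).

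Of the other caspases, 0 of 4 passed, where 14.2% of all genes did. CASP8, the initiator at death receptors, was above its control in all 4 pairs, by 0.11 (interval 0.00 to 0.22, adjusted p = 0.166). CASP10, its relative, was dim and differed by 0.02 (adjusted p = 0.922). CASP2, an initiator linked to DNA damage and mitotic errors, read 9.05, 9.81, 9.82 and 9.80 against 8.63, 9.80, 9.77 and 9.78. Its difference of 0.13 (adjusted p = 0.283) lay mostly in array set 1, at 0.42, against 0.03 in array set 2. CASP6, an executioner, was below its control in all 4 pairs, by 0.08 (adjusted p = 0.347). For 33% of all genes the 4 same-numbered pairs went in 1 direction.

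FADD, the adaptor that brings CASP8 to death receptors, rose to 115% of control (interval 106 to 125%). It read 8.49, 9.30, 9.31 and 9.33 under CDK9 siRNA and 8.17, 9.20, 9.15 and 9.09 in the controls. Every treated array was above its control, and array set 2 did not overlap. Its log2 difference of 0.20 ± 0.05 (SE, n = 4 per group, adjusted p = 0.0314) missed the threshold in the paired fit (adjusted p = 0.0827). Leaving out any 1 array other than control replicate 2 ended its call, with adjusted p values from 0.053 (without replicate 1 of either group) to 0.0989 (without control replicate 4). TRADD, the adaptor of the TNF receptor, differed by -0.15 (adjusted p = 0.303). CFLAR, which encodes FLIP, the inhibitor of CASP8 at death receptors and another short-lived protein, differed by -0.04 (adjusted p = 0.785), and its second probe set by -0.21 ± 0.13 (SE).

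The array sets gave many of the genes differences of opposite sign. The difference had the same sign in both sets for 18 of the 32 genes, 56.2%, near the 56.9% of all genes. All 5 called genes were among these 18, which the call itself favours because it draws on both sets. All 4 same-numbered pairs went one way for 15 of the 32, 8 up and 7 down, where 33% of all genes did so. Within array set 2 the groups did not overlap for 8 genes with higher and 7 with lower signal, 15 of 32 against 38.1% of all genes. Without array set 1, 2 genes were called higher (PMAIP1 and BNIP3) and 3 lower (XIAP, CASP9 and BBC3), against 9.52% of all genes higher and 8.57% lower (18.1% in all), and FADD missed the threshold (adjusted p = 0.053). In the paired fit PMAIP1 was called higher and CASP9 lower, 2 of 32, against 4.41% of all genes higher and 4.75% lower (9.17% in all).

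**Figure D3:**
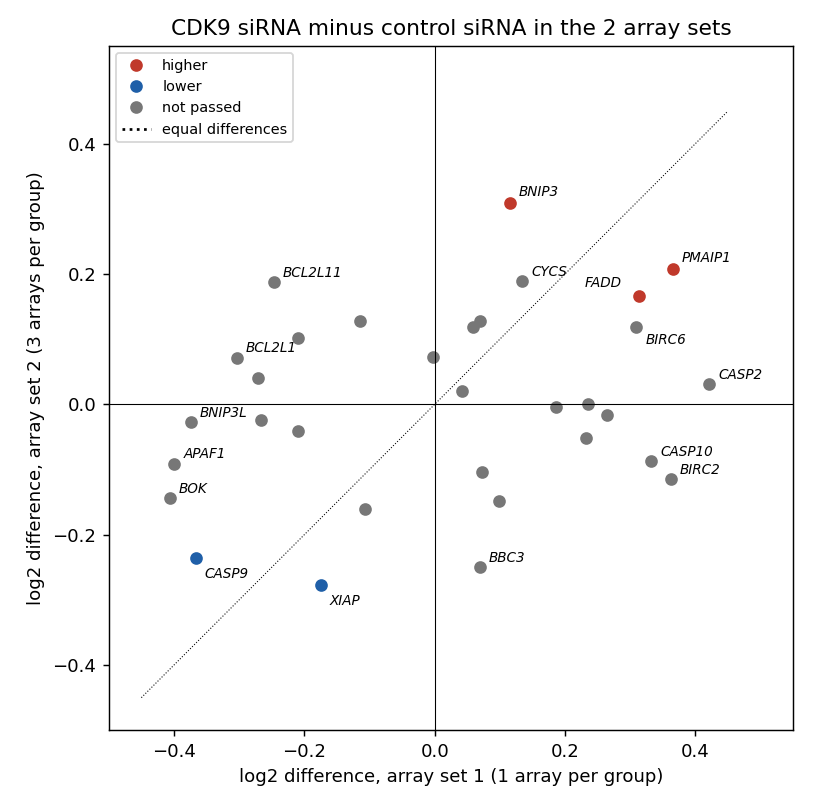
Log2 difference of each of the 32 genes in array set 1 (horizontal axis, 1 array per group) against array set 2 (vertical axis, mean of 3 arrays per group). The 5 called genes, in colour, lie in the quadrants where both sets share a sign, while BIRC2, CASP10, BBC3, BCL2L1 and BCL2L11 lie in the others.

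The promoters of the 5 called genes are printed so that the motif matches can be read in place. RefSeq windows (GRCh38.p14, not the hg19 build of the submitters) matched 27 of the 32 genes by symbol, and the 250 bases before the start are given 5′ to 3′ on the strand of the gene, from the first start listed (CASP9 had 2 and XIAP 3). Capitals mark matches, on either strand, to 5 short motifs. The TATA box was searched as TATAAA. The binding motif of NF-Y was searched as CCAAT. The GC box, bound by SP1, was searched as GGGCGG. The core of the cAMP response element was searched as TGACG. The core read by hypoxia-inducible factors and many E-box proteins was searched as ACGTG. Matches may overlap.
PMAIP1, chr18:59899746-59899995, plus strand: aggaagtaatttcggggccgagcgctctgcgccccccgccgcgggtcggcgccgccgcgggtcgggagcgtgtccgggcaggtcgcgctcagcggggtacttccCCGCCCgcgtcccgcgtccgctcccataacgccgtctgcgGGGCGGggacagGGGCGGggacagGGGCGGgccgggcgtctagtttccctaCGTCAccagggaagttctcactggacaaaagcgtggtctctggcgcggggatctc
BNIP3, chr10:131981924-131982173, minus strand: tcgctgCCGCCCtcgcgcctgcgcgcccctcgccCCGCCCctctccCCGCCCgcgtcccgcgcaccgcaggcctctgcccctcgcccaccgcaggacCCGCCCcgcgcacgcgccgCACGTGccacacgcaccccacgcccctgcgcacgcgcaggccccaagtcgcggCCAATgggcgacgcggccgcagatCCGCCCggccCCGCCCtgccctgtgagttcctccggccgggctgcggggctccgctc
FADD, chr11:70203046-70203295, plus strand: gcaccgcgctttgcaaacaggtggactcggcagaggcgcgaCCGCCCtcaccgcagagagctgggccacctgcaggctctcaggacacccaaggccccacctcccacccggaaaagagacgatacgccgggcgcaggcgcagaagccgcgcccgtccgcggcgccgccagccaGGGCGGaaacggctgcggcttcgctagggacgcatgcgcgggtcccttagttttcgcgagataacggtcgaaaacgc
XIAP, chrX:123859458-123859707, plus strand: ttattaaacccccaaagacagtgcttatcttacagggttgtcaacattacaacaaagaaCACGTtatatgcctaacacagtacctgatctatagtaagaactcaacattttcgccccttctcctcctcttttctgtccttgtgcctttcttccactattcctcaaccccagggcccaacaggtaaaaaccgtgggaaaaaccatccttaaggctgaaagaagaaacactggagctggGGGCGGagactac
CASP9, chr1:15524216-15524465, minus strand: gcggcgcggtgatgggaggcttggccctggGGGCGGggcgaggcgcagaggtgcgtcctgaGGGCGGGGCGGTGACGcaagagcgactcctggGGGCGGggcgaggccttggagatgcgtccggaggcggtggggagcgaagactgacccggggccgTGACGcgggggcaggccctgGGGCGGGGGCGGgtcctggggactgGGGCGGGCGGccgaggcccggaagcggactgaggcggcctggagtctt
GGGCGG was in all 5, from 1 copy in XIAP to 8 in CASP9, where 42.3% of the promoters of 27305 genes held it, as did 20 of the 27. TATAAA was in none of the 5, in 2 of the 27 and in 11.1% of all promoters. TGACG was in PMAIP1 and CASP9 (21.7% of all), ACGTG in BNIP3, within the run CACGTG, and in XIAP (18.7% of all), and CCAAT in BNIP3 (33% of all). GC content was 44.8% in XIAP, 68.8% in FADD, 72.8% in PMAIP1, 77.6% in CASP9 and 81.6% in BNIP3, against a median of 58.0% for all promoters. No motif other than GGGCGG was in more than 2 of the 5. A match describes the letters only.

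The other genes of the pathway gave the same picture with somewhat larger single changes. In a list of 92 further apoptosis genes, 84 were measured, 6 rose and 4 fell, 11.9% against the background of 14.2%. The other 8 were not analysed here. The median difference was 0.02. The counts in each subset are small and were not compared by a test. On the death receptor side 3 of 19 passed, all lower, where 7.47% of all genes were lower. Among the mitochondrial genes 2 of 11 passed, both higher, where 6.73% of all genes were higher. Of caspases and their targets 1 of 10 rose, of further BCL2 family genes 1 of 11 rose, of further IAP genes 0 of 7 passed, and of regulators of BCL2 proteins 2 of 26 rose and 1 fell.

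The 2 lowest differences belonged to receptors. FAS (0.05), TNFRSF12A (0.11), TNFRSF10A (-0.15, dim), TNFRSF10B (-0.06), TNFRSF25 (-0.06) and TNFRSF10D (-0.07) did not pass. These further receptors of the same family are named here after their values were seen. TNFRSF1A, the main receptor of TNF, read 8.66, 9.78, 9.80 and 9.72 under CDK9 siRNA and 8.87, 10.11, 10.13 and 10.09 in the controls, which is 80.6% of control (-0.31 ± 0.05 SE, n = 4 per group, adjusted p = 0.00424). TNFRSF21, which encodes death receptor 6, read 8.66, 8.86, 8.93 and 8.92 against 8.50, 9.59, 9.68 and 9.63. Array set 2 gave -0.73 and replicate 1 gave 0.16, so the -0.51 over both sets (adjusted p = 0.0362) rests on replicates 2 to 4. Among the rises, AIFM2, an NADH-dependent oxidoreductase now known for suppressing ferroptosis, read 8.14, 8.87, 8.91 and 8.89 against 7.78, 8.46, 8.24 and 8.43 and rose 1.39-fold (adjusted p = 0.00155). BAG2, a co-chaperone of HSC70, read 9.57, 10.17, 10.19 and 10.17 against 9.29, 9.76, 9.74 and 9.82 and rose 1.30-fold (adjusted p = 0.00156). Both were above their controls in all 4 pairs.

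The rest were smaller. TMBIM6 (Bax inhibitor, 0.25), PARP1, a DNA repair enzyme cut by caspases (0.24), MOAP1, which binds BAX (0.20), and OPA1, the fusion enzyme of the inner mitochondrial membrane (0.20), rose. PPP1R13B, which binds p53 (-0.24), and DEDD, a death effector domain protein (-0.21), fell. In the paired fit TNFRSF21, DEDD, MOAP1 and OPA1 did not pass (adjusted p = 0.084, 0.0716, 0.0977 and 0.0707). Leaving out single arrays in turn, AIFM2, BAG2, TNFRSF1A, TMBIM6 and PARP1 passed in all 8 fits, PPP1R13B in 7 (0.0506 without control replicate 3), DEDD in 4, TNFRSF21 and OPA1 in 2 each and MOAP1 in 1. Outside the threshold, the largest differences were those of BAG1 (-0.21, adjusted p = 0.0506), BCL2L13 (0.19, adjusted p = 0.0535) and DAPK3 (-0.18, adjusted p = 0.165).

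**Figure D4:**
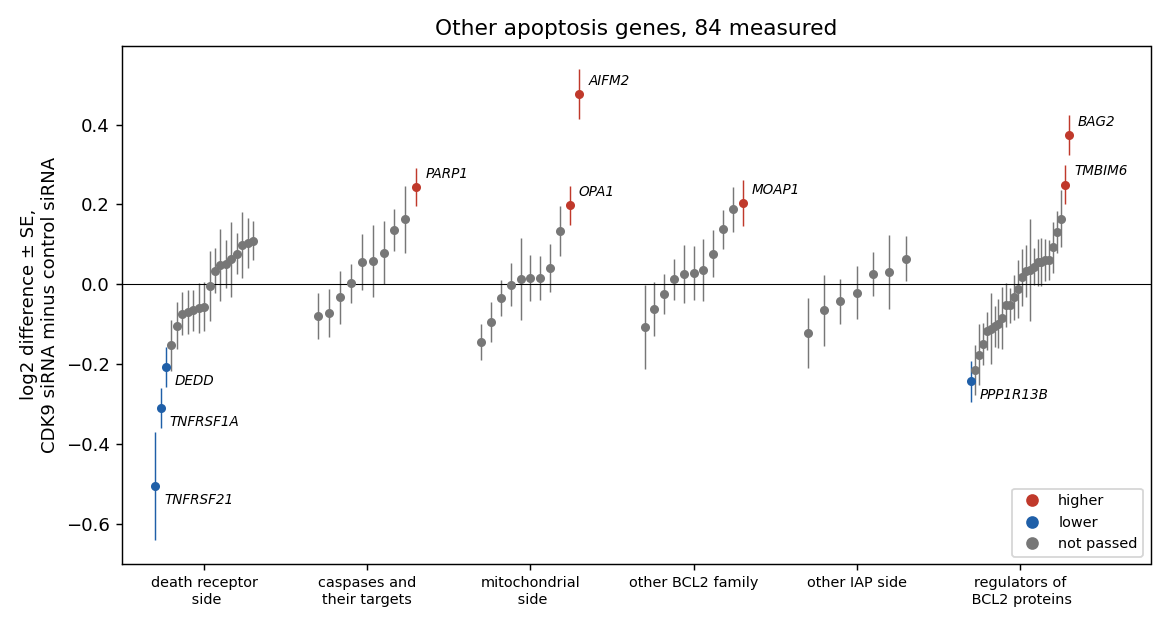
Log2 difference with its SE (n = 4 arrays per group) for the 84 other apoptosis genes measured, ordered by size within each subset. The 10 genes that passed are named. AIFM2 and BAG2 are the highest and TNFRSF21 and TNFRSF1A the lowest.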

How the data were processed

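The deposited table gave log2 expression values of 33297 probe sets on 8 arrays. The names listed in the submitters' processing notes are build hg19, limma, RMA and Affymetrix Expression Console 1.1; the sources used here do not say which arrays the authors normalized as 1 batch. Replicate 1 of both groups is on a lower scale, so levels are not comparable across array sets, and differences were taken within a set. The highest log2 values were alike (14.53 and 14.61 in array set 1, 14.60 to 14.67 in array set 2), so the gap is not a plain shift. Whether log2 differences are on the same scale in both sets was not tested. Gene symbols came from the platform annotation (1 symbol for 19460 probe sets, several for 1754, none for 12083), and RefSeq identifiers changed 0 of them. The probe set with the highest mean over all arrays stood for a gene.

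The test was limma 3.58.1 under R 4.3.3 (linear fit, eBayes, two-sided, Benjamini-Hochberg over 18417 genes, threshold 0.05) with the array set as a block; tables used Python 3.11.15 and pandas 2.3.3. No filter on signal was applied, so all 32 genes with a probe set entered. p-values measure the spread between these cultures, and 4 arrays per group limit the precision. The number of array pairs with mostly identical values was 0. The same-numbered arrays deviated together from their group means (r = 0.822, 0.537, 0.494 and 0.607 for replicates 1 to 4, above the limit of 0.1). Those means were taken over all 4 arrays of a group, so the offset between array sets enters every value. These correlations therefore cannot show whether same-numbered arrays of array set 2 are paired. Calls changed by the replicate number as a block are given beside the results. The labels do not state what a number marks. The fits were tested on simulated data with an array set effect and no replicate effect, so that test cannot bear on the choice of block.

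The genes, lists and tests were chosen with earlier results of these data known. Every gene of the set is named; of other apoptosis genes, those that passed (at most 12) and the 3 largest that did not. Alternatives were no block, the replicate number as a block, median centring, quantile normalization, array set 2 alone, each array left out, no dim genes, the mean of all probe sets and an intensity trend.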

Additional observations from a re-analysis of the deposited data

Results flagged for a closer look

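For 6 genes of the set, 1 same-numbered pair stood apart from the other 3 by Dixon's criterion. It was replicate 1 for BCL2 (0.26), BAD (-0.27), BNIP3L (-0.37), BIRC2 (0.36) and CASP2 (0.42), and replicate 3 for XIAP (-0.51). Among the 84 other apoptosis genes it was replicate 1 for TNFRSF21 (0.16), OPA1 (0.12), PPIF (0.33), BNIP2 (-0.11) and FOXO3 (0.27), replicate 2 for AATK (-0.25) and replicate 3 for CASP12 (0.18). Chance flags about 1 in 20 groups. On the deposited scale, replicate 1 stood apart in the same way in 47 of the 64 groups of 4 arrays.

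The change from array set 1 to array set 2 in the log2 difference passed the test for BIRC2 (-0.48, adjusted p = 0.0499) in the set and, of the 84 other apoptosis genes, for TNFRSF21 (-0.89, adjusted p = 0.0142), PIM1 (0.82, adjusted p = 0.0223) and SLC25A4 (0.61, adjusted p = 0.0491). Array sets 1 and 2 gave -0.58 and 0.24 for PIM1 and -0.45 and 0.17 for SLC25A4. What differs between the array sets is not stated in the labels.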

How the results depend on the processing

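Without a block, limma called 0 genes of the set in either direction (0 also before adjustment, at p under 0.05), 0 other apoptosis genes in either direction, and CDK9 did not pass at the same log2 difference of -1.82, since the gap between array sets enters the residual of that fit. With the replicate number as a block, 1 gene of the set was higher and 1 lower, against 4.41% of all genes higher and 4.75% lower. In that fit 2 of the other apoptosis genes were lower, and AIFM2, BAG2, TMBIM6 and PARP1 passed as higher. Leaving out each array in turn gave 0 to 2 genes higher and 1 to 3 lower in the set, and 1 to 5 lower among the other apoptosis genes. AIFM2, BAG2, TMBIM6 and PARP1 stayed higher in all 8 of these fits. Fewer arrays also give less power. The count of genes that differ between array sets was 0 with arrays centred on their medians or all probe sets averaged. It was 4 without dim genes or with an intensity trend (BIRC2, BCL2L1, BNIP3L and CASP2). Shares of all genes are not given for these counts or for the fits with an array left out, so neither can be set against the background.

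No called gene changed sign under any of the 16 alternatives. These are not all distinct, since leaving out either replicate 1 array repeats the fit of array set 2 alone. Sign changes were seen for genes that passed in none of them. In array set 2 alone the values were BCL2 -0.016, BCL2L1 0.072, MCL1 -0.0035, HRK -0.052, BIRC2 -0.12, CASP10 -0.087 and CFLAR 0.041, and BCL2A1 was -0.020 after quantile normalization. With single arrays left out the ranges were -0.016 to 0.075 for BCL2, -0.049 to 0.072 for BCL2L1, -0.0035 to 0.075 for MCL1, -0.060 to 0.10 for BCL2A1, -0.015 to 0.090 for BIK, -0.052 to 0.074 for HRK, -0.12 to 0.036 for BIRC2, -0.087 to 0.068 for CASP10 and -0.084 to 0.041 for CFLAR. BOK and CYCS passed without dim genes (adjusted p = 0.0344 and 0.0271) and with an intensity trend (0.026 and 0.0205), and CYCS after quantile normalization (0.0343). BCL2A1 and CASP10, the 2 dim genes, may lie near background, which was not measured here. Whether low signal limits their precision was not tested.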

Other observations

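BIRC2 was the 1 gene of the 32 whose signal was higher in array set 1 than in array set 2, by 0.39 on average over both groups, whereas the other genes of the set lay lower there (median offset over the 32 of -0.92). Of all genes tested, 0.451% were higher in array set 1. The mitophagy receptors BNIP3 and BNIP3L, which share a role, had offsets of -0.70 and -1.82, and BCL2L11 and BMF, both BH3-only genes, had -1.81 and -1.82, the lowest beside BNIP3L.

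Survivin (BIRC5), the IAP of dividing cells, had a difference of 0.03 (adjusted p = 0.822). It was picked after its value was seen.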
